A study of Sus scrofa with 3 samples.

Results

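Genes of triglyceride assembly and glycerol handling were followed in visceral adipose tissue (VAT) of miniature pigs. The genes were taken from a list of names, with no threshold on a measured value. They supply glycerol 3-phosphate (GPD1, PCK1, PCK2 and GK), build triglyceride on it (GPAM, AGPAT2, LPIN1, DGAT1 and DGAT2) or let glycerol leave the cell (AQP7). Of the 10 genes, 9 were matched among the 22826 mRNA genes of the series, with DGAT1 listed under its older name DGAT. GPAM, which adds the first fatty acid, was not analysed here because no gene of that name was matched. All 9 genes stood above 1 UQRPKM in every library, so none was lost to a filter on low values.

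The tissue was retroperitoneal fat of male Chinese Wuzhishan miniature pigs, aged 6 to 7 months when obtained, which in every group ate feed rich in fat and cholesterol (the HFC diet) for 12 weeks. IM pigs were intact and had skin incisions only, CM pigs were castrated, and CMT pigs had weekly injections of testosterone propionate in corn oil (10 mg/kg) after castration. RNA of 4 to 6 pigs per group by the labels, or 4 by the methods of the study, was pooled by equal amounts into 1 library. With 1 library for each group, the differences below could not be checked against replicates within the sequencing data. PCK1 was also measured by qRT-PCR in the study, and those values were not analysed here. UQRPKM is the number of reads on a gene per kilobase of its length, scaled by the upper quartile of reads per gene in the library. A gene was counted as changed where its levels differed by 1.5-fold and neither was under 1 UQRPKM. The 95% intervals of ratios were computed by the exact Clopper-Pearson method from the reads recovered for each gene. Those of single levels came from the exact Poisson method. Those of log2 changes of a ratio between a pair of genes came from a large-sample approximation. All cover counting error, not the spread between pigs.

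A fat cell stores fatty acids as triglyceride, in which each glycerol backbone carries fatty acids added one after another. The backbone starts as glycerol 3-phosphate, which GPD1 makes from a product of sugar breakdown. The same compound also comes from pyruvate and amino acids by way of PCK1 (glyceroneogenesis), so GPD1 serves that route too. GK makes glycerol 3-phosphate from free glycerol. Fat cells have little glycerol kinase activity, so most glycerol freed by lipolysis leaves through the channel AQP7 for the liver.

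The libraries held between 13449107 (CMT) and 14844063 (IM) recovered mRNA reads. The 7 matched adipocyte markers summed to 133793, 128043 and 106583 UQRPKM in IM, CM and CMT, and ADIPOQ was the highest of them in every library. Liver markers summed to 2570, 10489 and 1753 UQRPKM. ALB, the albumin of liver, stood at 2.61 UQRPKM in IM, at 2910 in CM and at 4.00 in CMT. APOA1 made up most of the list in IM and CMT and was not highest in CM. It had 2539, 2339 and 1714 UQRPKM in IM, CM and CMT. Skeletal muscle markers summed to 82.3, 68.3 and 6130 UQRPKM, led by ACTA1. Liver markers other than APOA1 were therefore far higher in the CM library than in the others. Muscle markers other than CKM were far higher in CMT. Kidney tissue also uses PCK1 and GK. Of 8 kidney markers, 7 in IM, 7 in CM and 6 in CMT were listed at 0, and all 8 together had at most 7 reads in a library. A listed 0 need not mean that a tissue was absent. CKM, a skeletal muscle marker, was listed at 0 in CMT too, where ACTA1 had 9176 reads. Mesothelial markers summed to 73.5, 138 and 367 UQRPKM, macrophage markers to 965, 1085 and 903, endothelial markers to 6838, 6022 and 6692, stromal markers to 72110, 69785 and 68301, and adrenal markers to 30.2, 28.1 and 29.2. The macrophage sum was led by CD14, and 2 of the 6 macrophage markers compared were highest in CM past 1.5-fold. CD68 stood at 17.2 UQRPKM in IM, at 42.9 in CM and at 22.2 in CMT, and EMR1 at 45.6, 93.6 and 30.6. AIF1 (198, 275 and 257 UQRPKM in IM, CM and CMT) and CD14 (390, 395 and 339) were also highest in CM, by less than 1.5-fold. The list was not uniform. CSF1R was highest in IM, with 285, 246 and 221 UQRPKM in IM, CM and CMT. MSR1 was highest in CMT, with 28.8, 33.3 and 34.7, and CD163 was listed at 0 in every library. The stromal sum, led by COL3A1, covered differences in opposite directions. COL1A1 had 4453, 2235 and 2580 UQRPKM in IM, CM and CMT, and PDGFRA had 288, 306 and 434. In pooled tissue, fewer cells of a type and less RNA per cell cannot be told apart.

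PCK1 and LPIN1 were lower in the castrated CM library than in IM, by 1.60-fold and 1.64-fold. PCK1 stood at nearly the IM level again in CMT, and LPIN1 stood between the other levels. GPD1 and AQP7 were close to IM in CM and lower in CMT. In UQRPKM, DGAT1 and DGAT2, which add the last fatty acid, differed least.

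DGAT2 was the highest of the 9 genes in every library and PCK2 the lowest. In IM the order was DGAT2, GPD1, PCK1, AQP7, LPIN1, DGAT1, AGPAT2, GK and PCK2. The order in CM was the same, and in CMT PCK1 stood above GPD1. DGAT2 and GPD1 did not differ beyond counting error in IM (ratio 1.02, 95% interval 0.987 to 1.06), and neither did DGAT1 and AGPAT2 in CM (ratio 1.04, 95% interval 0.959 to 1.13). All other neighbours in the order of a library did. DGAT2 ranked 138 among the mRNA genes in IM, GPD1 143 and PCK1 189, while GK ranked 3541 and PCK2 5776. The recovered gene length of DGAT2, which is the shortest that fits the values, was only 336 bases. Its level may thus rest on a short gene model.

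**Figure D1:**
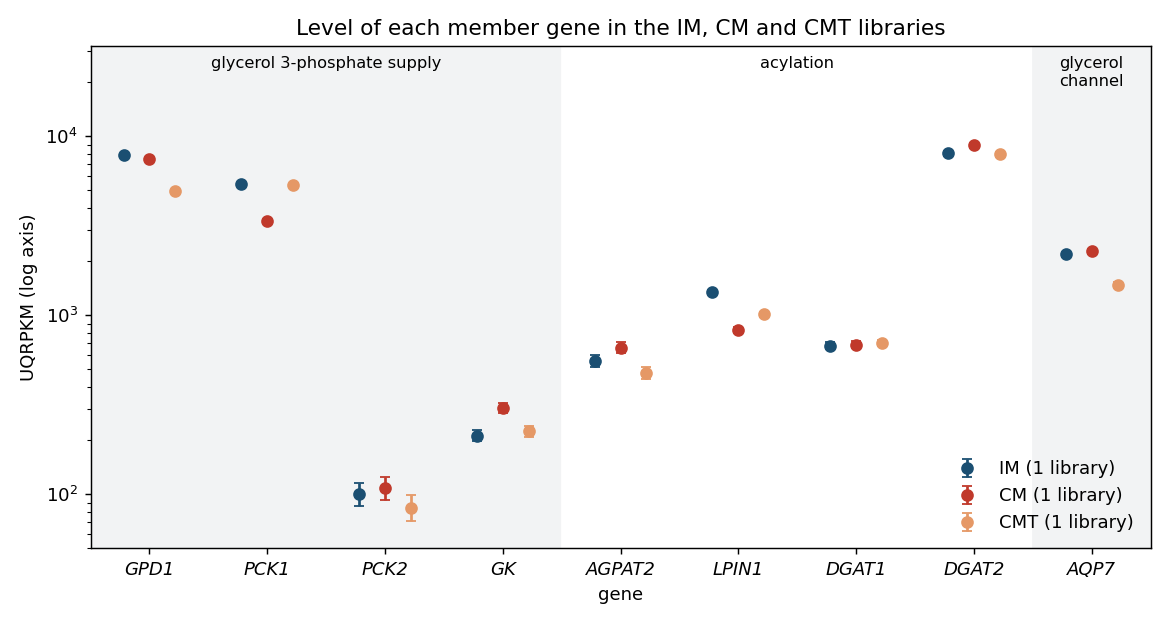
Level of each gene in UQRPKM on a log axis, in the IM, CM and CMT libraries, with 1 point per library and bars for the 95% interval of counting error. The 9 genes span from 84.0 UQRPKM (PCK2 in CMT) to 8891 UQRPKM (DGAT2 in CM), and PCK1 and LPIN1 are lowest in CM.

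Among the genes that supply glycerol 3-phosphate, GPD1 is the cytosolic dehydrogenase that reduces dihydroxyacetone phosphate to glycerol 3-phosphate. GPD1 stood at 7876 UQRPKM in IM, at 7479 in CM and at 4925 in CMT. The CMT library was thus the low one, and IM and CM lay close together. The log2 ratio of GPD1 was -0.07 in CM against IM (95% interval -0.11 to -0.04), -0.60 in CMT against CM (-0.64 to -0.56) and -0.68 in CMT against IM (-0.72 to -0.64).

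PCK1 encodes the cytosolic phosphoenolpyruvate carboxykinase, the controlled step of glyceroneogenesis in fat. It stood at 5402 UQRPKM in IM, at 3377 in CM and at 5326 in CMT, from 20854, 12426 and 20146 reads. Here CM was the low library. The log2 ratio was -0.68 in CM against IM (95% interval -0.71 to -0.65) and 0.66 in CMT against CM (0.62 to 0.69). In CMT against IM it was -0.02, with an interval from -0.05 to 0.01 that includes 0. Liver expresses PCK1 too, and liver markers other than APOA1 were highest in CM. The macrophage markers CD68, EMR1, AIF1 and, slightly, CD14 were highest in CM as well, whereas CSF1R was highest in IM and MSR1 in CMT. The part of liver and macrophage transcripts in the PCK1 values was not tested.

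PCK2, the mitochondrial carboxykinase encoded by a separate gene, stood at 100.3 UQRPKM in IM, at 108 in CM and at 84.0 in CMT, from 173, 178 and 142 reads. It did not share the low value of PCK1 in CM. Its log2 ratio in CM against IM was 0.11 (-0.20 to 0.42), and changes within that range were not detectable at this depth. In CMT against CM the ratio was -0.37 (-0.69 to -0.04).

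GK, the glycerol kinase, stood at 213 UQRPKM in IM, at 303 in CM and at 225 in CMT. It was highest in CM, where PCK1 was lowest. The log2 ratio was 0.51 in CM against IM (0.38 to 0.65), which is 1.43-fold and under the threshold, -0.43 in CMT against CM (-0.56 to -0.29) and 0.08 in CMT against IM (-0.06 to 0.23). Liver expresses GK strongly, and liver markers summed to 10489 UQRPKM in CM against 2570 in IM and 1753 in CMT. Most of the IM and CMT sums was APOA1, at 2539 and 1714 UQRPKM, beside 2339 in CM. The part of liver transcripts in the GK value was not tested.

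Among the enzymes that build triglyceride, AGPAT2 adds the second fatty acid and its loss in humans causes a congenital lack of fat. AGPAT2 stood at 557 UQRPKM in IM, at 661 in CM and at 476 in CMT. In UQRPKM it was highest in CM and lowest in CMT. Its log2 ratio was 0.25 in CM against IM (0.10 to 0.39), -0.47 in CMT against CM (-0.62 to -0.32) and -0.23 in CMT against IM (-0.38 to -0.07), all under 1.5-fold.

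LPIN1 encodes lipin 1, which removes the phosphate of phosphatidate to give diacylglycerol and also acts as a transcriptional coactivator. It stood at 1355 UQRPKM in IM, at 828 in CM and at 1015 in CMT. Both castrated libraries lay below IM, and CM lay lowest. The log2 ratio was -0.71 in CM against IM (-0.77 to -0.65), the largest among the 27 ratios of the 9 genes, 0.29 in CMT against CM (0.23 to 0.36) and -0.42 in CMT against IM (-0.47 to -0.36). Only the first passed 1.5-fold. Skeletal muscle also expresses LPIN1, and muscle markers stood at 6130 UQRPKM in CMT against 68.3 in CM. Their part in the CMT value was not tested.

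DGAT1 and DGAT2 both join the last fatty acid to diacylglycerol, although they are unrelated in sequence. DGAT1 stood at 676 UQRPKM in IM, at 687 in CM and at 701 in CMT, and all 3 intervals of its ratios included 0. They lay between -0.07 and 0.14 on the log2 scale. DGAT2 stood at 8056 UQRPKM in IM, at 8891 in CM and at 7942 in CMT. In UQRPKM, CM was slightly the highest library for DGAT2. The log2 ratio was 0.14 in CM against IM (0.08 to 0.20) and -0.16 in CMT against CM (-0.23 to -0.10).

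AQP7 is the glycerol channel of the fat cell membrane. It stood at 2193 UQRPKM in IM, at 2279 in CM and at 1481 in CMT. As with GPD1, only the CMT library was low. The log2 ratio was 0.06 in CM against IM (-0.01 to 0.12), -0.62 in CMT against CM (-0.70 to -0.55) and -0.57 in CMT against IM (-0.64 to -0.49). The last is 1.48-fold, just under the threshold, while the ratio of GPD1 in CMT against CM at 1.52-fold lay just past it and went under it, at -0.58, when scaled by total UQRPKM or by the median ratio over genes. Muscle markers stood at 6130 UQRPKM in CMT against 68.3 in CM and adipocyte markers at 106583 against 128043, and their part in the low values of GPD1 and AQP7 was not tested.

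In CM against IM, 2 of 9 genes passed 1.5-fold (LPIN1 and PCK1), both lower in CM. Over all 14123 mRNA genes compared, 18.8% passed, 8.38% higher and 10.4% lower. In CMT against CM, 3 of 9 passed, with PCK1 higher and GPD1 and AQP7 lower in CMT, against 19.5% of 14098 genes, 9.53% higher and 9.97% lower. In CMT against IM, 1 of 9 passed (GPD1, lower in CMT), against 20.7% of 14151 genes, 8.81% higher and 11.9% lower. Against background shares of this size, counts out of 9 genes are no result about the genes as a set. Many genes in the background have few reads. With at least 100 reads in both libraries, which all 9 genes have, the background fell to 5.47%, 5.87% and 7.59% and the counts of 2, 3 and 1 stayed. This minimum was added after the data were seen. The median log2 ratio of the 9 genes was 0.06 in CM against IM, -0.37 in CMT against CM and -0.23 in CMT against IM, beside -0.06, -0.02 and -0.08 over all genes compared. Each library enters more than 1 comparison, so the 3 comparisons are not independent.

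**Figure D2:**
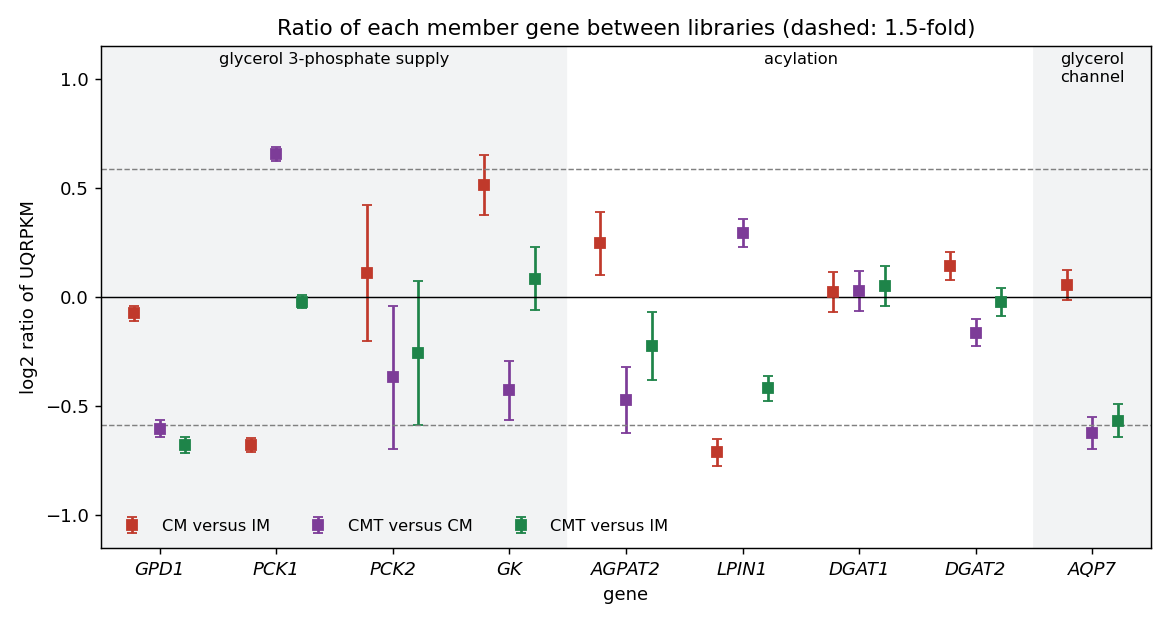
Log2 ratio of UQRPKM of each gene in CM against IM, CMT against CM and CMT against IM, with bars for the 95% interval of counting error and dashed lines at 1.5-fold. PCK1 lies below the lower line in CM against IM and above the upper line in CMT against CM, and GPD1 and AQP7 lie low in the comparisons with CMT.

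Counting error was small beside the differences that passed. Of the 6 ratios past 1.5-fold, 4 had an interval that lay wholly past it: LPIN1 and PCK1 in CM against IM, PCK1 in CMT against CM and GPD1 in CMT against IM. The intervals of GPD1 and AQP7 in CMT against CM reached back across the threshold. Of all 27 ratios, 18 had intervals that excluded 0. What the pools of other pigs would have given cannot be known from 1 library per group.

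Ratios between a pair of genes within a library do not depend on how the libraries were scaled. PCK1 stood at 0.686 of the GPD1 level in IM, 0.452 in CM and 1.08 in CMT. This ratio differed the most among the pairs of members compared, with a log2 change of 1.26 in CMT against CM (large-sample 95% interval 1.21 to 1.31). PCK1 exceeded PCK2 by 53.9-fold in IM, 31.2-fold in CM and 63.4-fold in CMT. The ratio of PCK1 to LPIN1 was 3.99 in IM and 4.08 in CM, and the interval of its log2 change, from -0.04 to 0.10, included 0. PCK1 and LPIN1 were therefore lower in CM by a similar factor. In CMT the ratio was 5.25, with a log2 change against IM of 0.40 (0.33 to 0.46).

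GK stood at 0.0970 of the AQP7 level in IM, 0.133 in CM and 0.152 in CMT. It was thus far below the channel in every library, and highest relative to it in CMT, where AQP7 was low. The log2 change of this ratio was 0.46 in CM against IM (0.31 to 0.61) and 0.65 in CMT against IM (0.49 to 0.81). DGAT2 exceeded DGAT1 by 11.9-fold in IM, 12.9-fold in CM and 11.3-fold in CMT.

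PLIN1, the perilipin that coats the lipid droplet of fat cells, was set beside GPD1 and AQP7 because it was also low in CMT. It stood at 18396 UQRPKM in IM, at 18587 in CM and at 12504 in CMT. AQP7 stood at 0.119, 0.123 and 0.118 of the PLIN1 level in IM, CM and CMT. The log2 change of that ratio had intervals that included 0 in all 3 comparisons and lay between -0.13 and 0.11. GPD1 stood at 0.428, 0.402 and 0.394 of PLIN1, so it followed PLIN1 within 1.09-fold, with intervals that excluded 0 in CM against IM and CMT against IM. These pairs were chosen after the values were seen and carry no test.

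**Figure D3:**
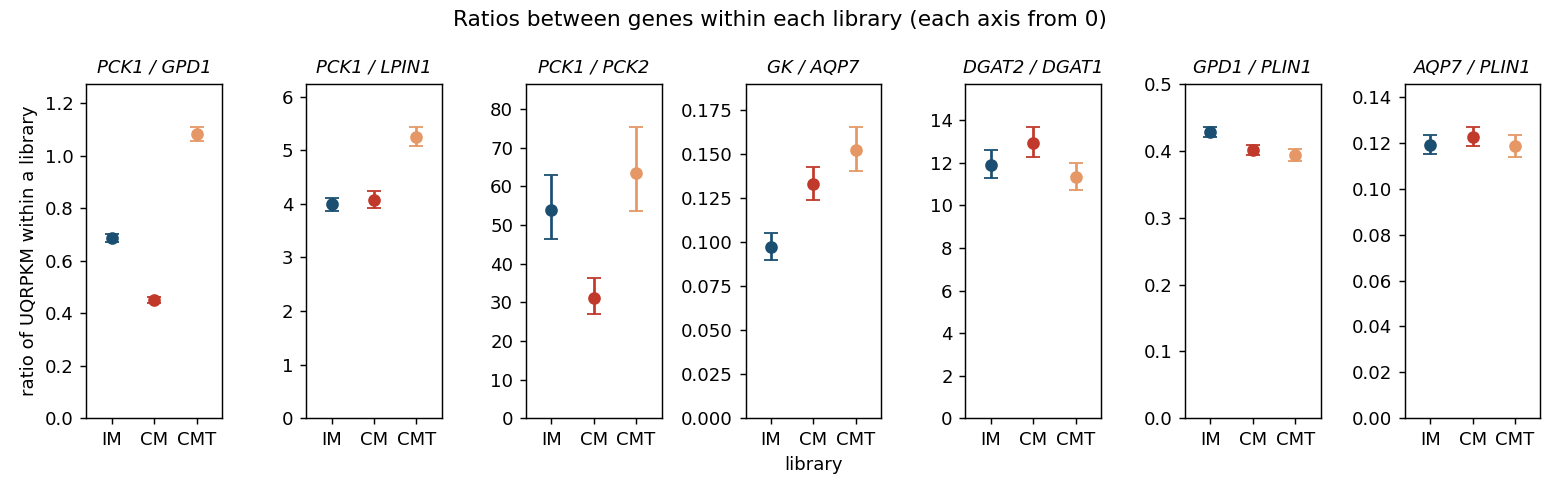
Ratio of UQRPKM between a pair of genes within each library, 1 point per library with its 95% interval of counting error, on axes that start at 0. PCK1 relative to GPD1 is lowest in CM (0.452) and highest in CMT (1.08), while AQP7 relative to PLIN1 stays between 0.118 and 0.123.

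Several adipocyte markers were low in CMT together with GPD1 and AQP7. PLIN4, another droplet coat protein, had a log2 ratio of -1.03 in CMT against CM, PLIN1 -0.57 and LIPE, the hormone-sensitive lipase, -0.47. ADIPOQ (-0.12), PPARG (-0.03) and CFD (0.17) differed less. The mean over the 7 markers was -0.33 in CMT against CM and -0.31 in CMT against IM, but 0.02 in CM against IM. Taken relative to this mean, PCK1 and LPIN1 both passed 1.5-fold in CMT against CM, both higher in CMT with log2 ratios of 0.98 and 0.62. GPD1 and AQP7 no longer passed, at -0.28 and -0.29. The split of calls in that comparison was thus 2 higher and 0 lower, beside 1 higher and 2 lower on the deposited scale. Over all genes compared, 27.2% passed at the adipocyte scaling, beside 19.5% on the deposited scale. In CM against IM the same scaling left PCK1 at -0.70 and LPIN1 at -0.73. It took DGAT1 from 0.03 to 0.36 in CMT against CM and from 0.05 to 0.36 in CMT against IM. Which scale describes the fat cells better was not tested.

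**Figure D4:**
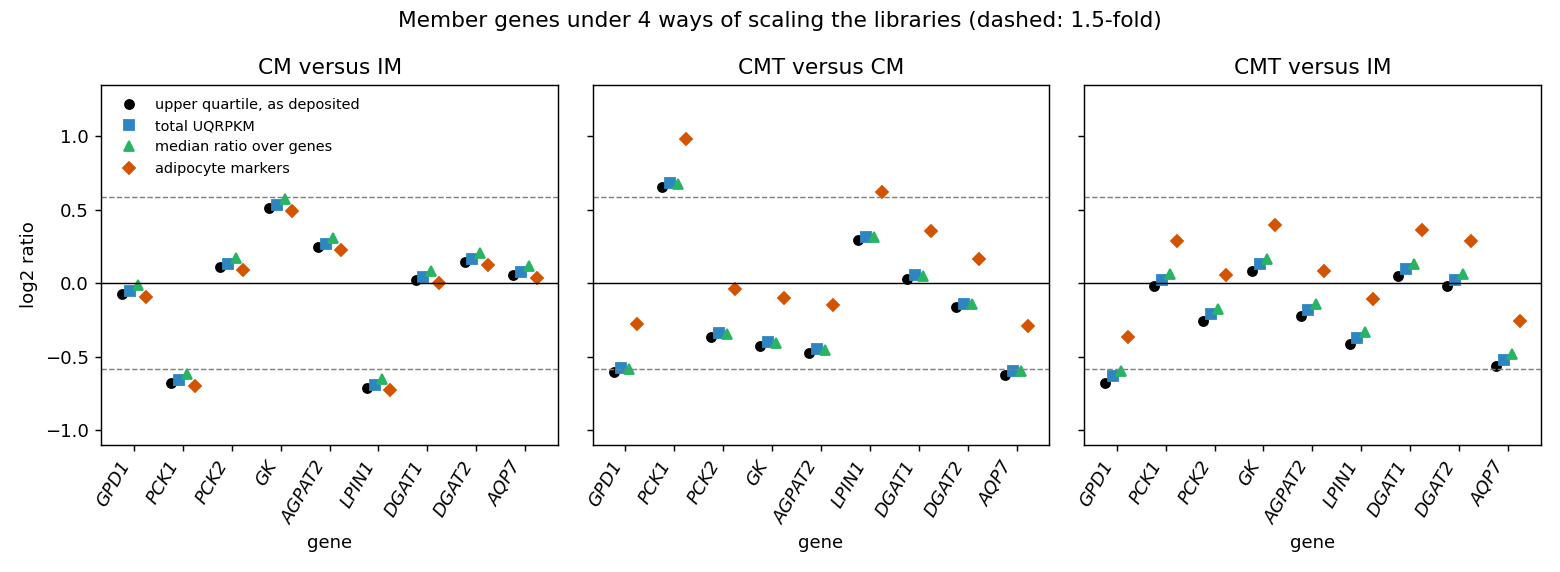
Log2 ratio of each gene in the 3 comparisons on the deposited upper-quartile scale and after scaling by total UQRPKM, by the median ratio over genes or by adipocyte markers, with dashed lines at 1.5-fold. The scales lie close together in CM against IM, and the adipocyte scale lies 0.33 and 0.31 higher in CMT against CM and CMT against IM.

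The other genes of the pathway were taken from a list of 27 genes, of which 25 were matched. In CM against IM, 20 of them reached 1 UQRPKM in both libraries, and 0 were higher and 2 lower past 1.5-fold, MOGAT2 and AQP10. In CMT against CM, 2 of 21 were higher, AQP10 and FITM1, and 0 lower. In CMT against IM, MOGAT1 was higher and LPIN3 lower among 20. The shares over all genes were 18.8%, 19.5% and 20.7%, above those of the pathway genes in each comparison. Nearly all of these rest on few reads. MOGAT2 and MOGAT1, which make diacylglycerol from monoacylglycerol, had 9, 5 and 6 reads and 27, 32 and 40 reads in IM, CM and CMT. AQP10, an aquaglyceroporin, had 5, 2 and 5 reads, and FITM1, a droplet-forming protein most abundant in muscle, had 0, 5 and 13. The intervals of the ratios counted for these 4 genes included 0. FITM1 in CMT against IM was not counted because FITM1 was listed at 0 in IM, although the interval of that log2 ratio lay above 0, from 1.64 upward. LPIN3, a relative of LPIN1, had more reads, with 186, 161 and 123 UQRPKM in the IM, CM and CMT libraries and a log2 ratio of -0.60 in CMT against IM (-0.75 to -0.45). This interval reached back across 1.5-fold, and LPIN3 no longer passed under any of the 3 other scalings. Unlike LPIN1 it was lowest in CMT.

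The pathway genes with the highest levels stayed within 1.5-fold. PC, the pyruvate carboxylase that feeds the PCK1 step, stood at 24830 UQRPKM in IM, at 21425 in CM and at 20100 in CMT. Its log2 ratio in CM against IM was -0.21, smaller in size than that of PCK1. TPI1, a glycolytic enzyme that interconverts dihydroxyacetone phosphate, had 3699, 3723 and 3721 UQRPKM. AGPAT1 stood at 10109 UQRPKM in IM, at 9468 in CM and at 7050 in CMT. Per length it exceeded AGPAT2, which carries out the same step, by 18.2-fold in IM, 14.3-fold in CM and 14.8-fold in CMT. ACSL1, which activates fatty acids, had 4883, 5214 and 3962 UQRPKM, and BSCL2, the seipin of droplet formation, had 1484, 1316 and 1206.

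AQP3, another glycerol channel, stood at 2034 UQRPKM in IM, at 1585 in CM and at 1460 in CMT. Its level in IM was close to that of AQP7 (AQP7 to AQP3 ratio 1.08, 95% interval 1.03 to 1.13), but it was lower in CM, where AQP7 was not, with a ratio of 1.44. In CMT the ratio was 1.01, with an interval from 0.955 to 1.08.

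**Figure D5:**
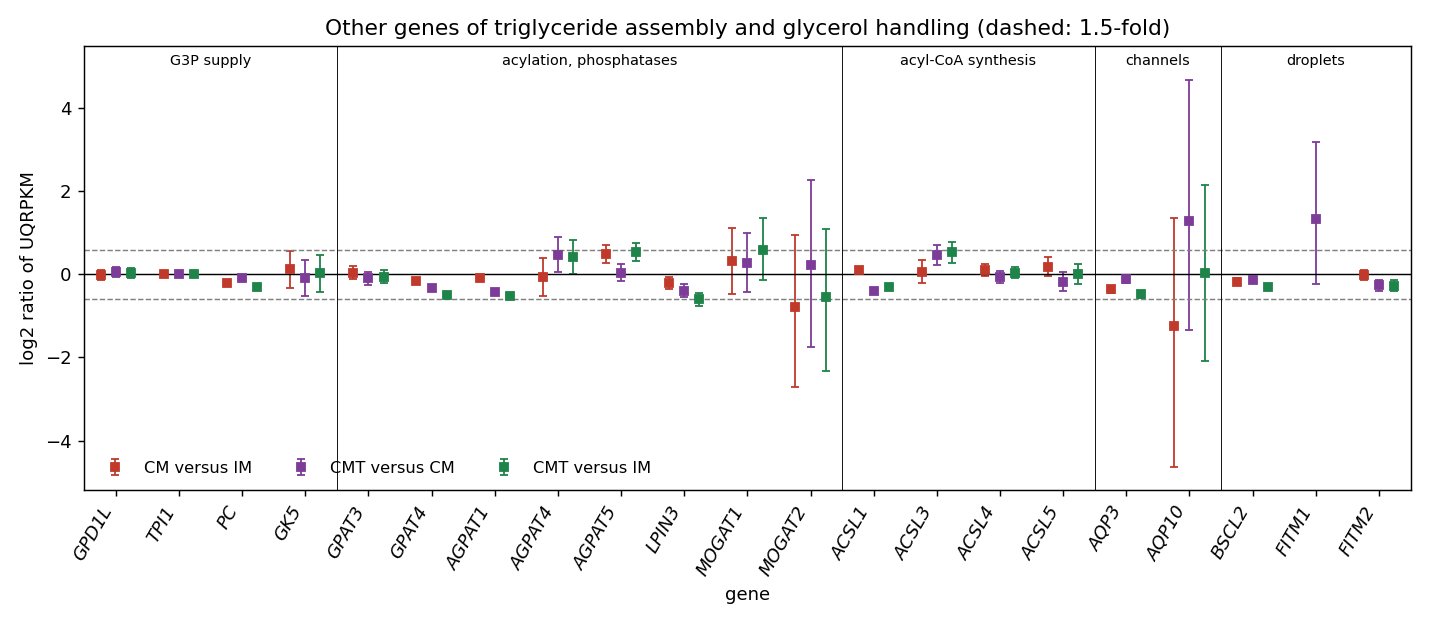
Log2 ratio of UQRPKM of the other pathway genes that reached 1 UQRPKM in both libraries, in 3 comparisons, with bars for the 95% interval of counting error and dashed lines at 1.5-fold (G3P, glycerol 3-phosphate). The long bars belong to MOGAT2, MOGAT1, AQP10 and FITM1, which have few reads, and LPIN3 is past the lower line in CMT against IM.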

How the data were processed

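Before deposition, the authors filtered reads of 1 pooled library per group, mapped them to Sscrofa 10.2 with MapSplice and deposited RPKM values scaled by the upper quartile (UQRPKM). The counting tool, annotation, strand setting and treatment of multiply mapped reads are not given in the sources used here, so values of genes with close copies are uncertain. The files carry no coordinates and the gene table describes another build, so positions are not given. Names were matched by symbol, by another name supplied with the gene lists (GPAT3, GPAT4, AHSG and CD68), or by RefSeq synonym or gene ID.

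Reads were recovered as the smallest whole numbers that fit all libraries (upper quartiles 149, 142 and 146, lengths up to 120000 bases, relative error at most 7.65e-09), which was possible for 100% of 20838 genes above 0. Reads that share a common factor are underestimated. Recovered reads came to 16611931, 15561124 and 15106608, or 14844063, 13582288 and 13449107 on mRNA genes. Python 3.11.15, numpy 2.4.6, pandas 2.3.3 and scipy 1.17.1 were used. With 1 library per group no test of the conditions was made. The intervals cover counting error of reads only. Amplified reads do not stand for separate molecules, so the intervals may be too narrow even for that error. Described genes were the 9 members, pathway genes past 1.5-fold in any comparison, the highest gene of each pathway list and leading markers. TPI1 and several markers that do not lead their lists were described beside these. A few more were chosen after their values were seen (AQP3 against AQP7, GPAT, GPAT3, GPAT4, AGPAT4, AGPAT5, ACSL3 and GPD1L). Alternatives were a fold of 2, other minimums, a pseudocount of 1, 3 other scalings and an exact binomial test on reads, which compares libraries and not conditions. Members and lists were chosen with earlier results of these data known.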

Additional observations from a re-analysis of the deposited data

How the results depend on the processing

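The counts of the 9 genes past 1.5-fold (2 in CM against IM, 3 in CMT against CM, 1 in CMT against IM) became 0, 0 and 0 at 2-fold, since the largest ratio was 1.64-fold. Scaling by adipocyte markers gave 0 in CMT against IM, and in CMT against CM it gave 2, of which PCK1 was shared with the reported calls. Scaling by total UQRPKM or by the median ratio gave 2 in CMT against CM, because GPD1 went from -0.60 to -0.58. The exact binomial test on reads, adjusted by Benjamini-Hochberg, removed none of the calls of the 9 genes. The counts of pathway genes (2, 2 and 2) rested on few reads. They became 1 in CM against IM and 0 in CMT against IM at 2-fold. A minimum of 10 UQRPKM gave 0, 0 and 1, as did the exact binomial test and a minimum of 100 reads. In CMT against IM, a pseudocount of 1 gave 1 (LPIN3, lower), scaling by total UQRPKM gave 1 (MOGAT1, higher) and scaling by the median ratio gave 3, all higher (AGPAT5, MOGAT1 and ACSL3). Scaling by adipocyte markers gave 5 of 21 in CMT against CM and 4 of 20 in CMT against IM, all higher, beside 27.2% and 24.7% of all genes at that scaling. Of 108 ratios of single genes recomputed, 82 stayed within their counting interval and 26 did not, 17 of them under adipocyte scaling. No ratio past 1.5-fold changed sign, but some smaller ones did. DGAT2 and PCK1 in CMT against IM each went from -0.02 to 0.02 when scaled by total UQRPKM and to 0.06 by the median ratio. Under adipocyte scaling, DGAT2 in CMT against CM went from -0.16 to 0.16. AGPAT2 in CMT against IM went from -0.23 to 0.08, and PCK1 there from -0.02 to 0.29. Adipocyte scaling raised every gene by 0.33 in CMT against CM and by 0.31 in CMT against IM on the log2 scale. No replicate could be left out, since each group is 1 library.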

Other observations

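A gene listed as GPAT, a name that the tables used here do not tie to GPAM, stood at 35.6 UQRPKM in IM, at 45.1 in CM and at 43.6 in CMT, from 358, 433 and 430 reads. It was looked up after the values of the other genes were seen. The related acyltransferase GPAT4 (listed as AGPAT6) had 2467, 2196 and 1758 UQRPKM, and GPAT3 (listed as AGPAT9) had 156, 160.2 and 150.0. On the deposited scale, GPAT4, AGPAT1, ACSL1, GPD1 and AQP7 were all lowest in CMT. Their log2 ratios in CMT against IM were -0.49, -0.52, -0.30, -0.68 and -0.57. Adipocyte scaling took GPD1 to -0.37 and AQP7 to -0.26 in that comparison and raised the others by the same amount. AGPAT5, ACSL3 and AGPAT4 had their highest values in CMT. Their ratios in CMT against IM were 0.53 (95% interval 0.32 to 0.75), 0.53 (0.28 to 0.78) and 0.41 (-0.001 to 0.82). The interval of AGPAT4, from 117 and 90 reads, included 0. AGPAT5 in CMT did not differ from CM beyond counting error, with a ratio of 0.04 (-0.16 to 0.24). GPD1L, a relative of GPD1, differed little between the libraries, with 210.2, 207 and 215 UQRPKM.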
